A study of Macaca mulatta with 6 samples.

Results

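Schwann cell and myelin genes were followed as a set of 7 symbols in tracheal tissue of rhesus monkeys: SOX10, PMP22, MBP, S100B, CDH19, PRX and NGFR. The members were matched by gene symbol, with no threshold on their values, and all 7 were found among the 28536 genes of the count table. All 7 also passed the filter on low counts, which kept 18676 genes. Control tissue (3 libraries) came after normal saline. The other 3 libraries came from monkeys in a model of intubation under general anaesthesia that were given an Oxy@Lipo/Gel-coated tracheal lubricant. No label says whether the controls were intubated too, and strain, sex and age are not stated. Replicates are labelled as biosamples, not as separate animals, so the spread behind each p-value may in part be technical. The comparison asks which transcripts of the airway lining and wall differ with the coated lubricant, here for the glia of its nerves.

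Schwann cells are the glia of peripheral nerves. Myelinating Schwann cells wrap single large axons in a compact membrane sheath, and non-myelinating (Remak) Schwann cells hold bundles of thin axons without a sheath. The airway wall receives vagal sensory and autonomic fibres, most of which are thin, so both kinds of glia can be present in a tracheal sample. The transcription factor SOX10 is needed throughout the lineage, while compact myelin is built from proteins such as PMP22 and MBP. Several members are also made elsewhere. SOX10 is known in melanocytes and in salivary and airway gland cells, S100B in cartilage and fat, NGFR in basal epithelium, PRX in endothelium and PMP22 in fibroblasts and muscle. In bulk tissue, fewer cells of a type and less RNA per cell cannot be told apart.

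Library totals ran from 17097177 to 23405294 counts, and 3 counts corresponded to 0.125 to 0.204 CPM (counts scaled to a common library size after TMM normalisation, with 1000000 as the total). Markers of trachea (FOXJ1 of ciliated cells, SCGB1A1 of club cells, MUC5B of mucous cells, COL2A1 of cartilage and MYH11 of smooth muscle) had counts in all 6 libraries. Control replicate 3 stood apart, because it also held thyroid transcripts. TG, which encodes thyroglobulin, measured 4698 CPM there and 4.26 to 6.79 CPM in the other 5 libraries. Control replicate 2 stood apart by its epithelium: the summed level of 6 basal epithelial genes was 12090 CPM there and 2023 to 6794 CPM elsewhere, while FOXJ1 measured 121 CPM against 339 CPM or more elsewhere. Smooth muscle separated the Oxy@Lipo/Gel libraries from each other, with sums over 6 genes of 9262 and 12180 CPM in replicates 2 and 3 and 1063 CPM in replicate 1, within the control range of 439.8 to 1612 CPM.

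None of the 7 members passed the test between groups (edgeR quasi-likelihood test, adjusted p under 0.05 over all genes), where 1.54% of all tested genes passed (0.851% upward and 0.685% downward). At an unadjusted p under 0.05 the test found 2 members, SOX10 and CDH19, both higher in the Oxy@Lipo/Gel group, against 23.3% of all genes (10.7% higher). Of the 7 log2 fold changes 5 were above 0 and 2 below, with a median of 0.58, while the median of all tested genes was -0.04. The members' median ran from 0.18 without control replicate 1 to 1.66 without control replicate 3, and was 0.31 without control replicate 2, 0.93 without Oxy@Lipo/Gel replicate 1 and 0.36 without Oxy@Lipo/Gel replicate 2. SOX10 was the single member whose groups did not overlap, with Oxy@Lipo/Gel above control. Such a gap was found upward for 12.2%, downward for 17.7% and in either direction for 29.9% of all tested genes. DESeq2 passed 1 member, SOX10, against 11.8% of the genes it tested. With Oxy@Lipo/Gel replicate 1 left out, edgeR passed 2 members, SOX10 and PMP22, against 3.3% of all genes.

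**Figure D1:**
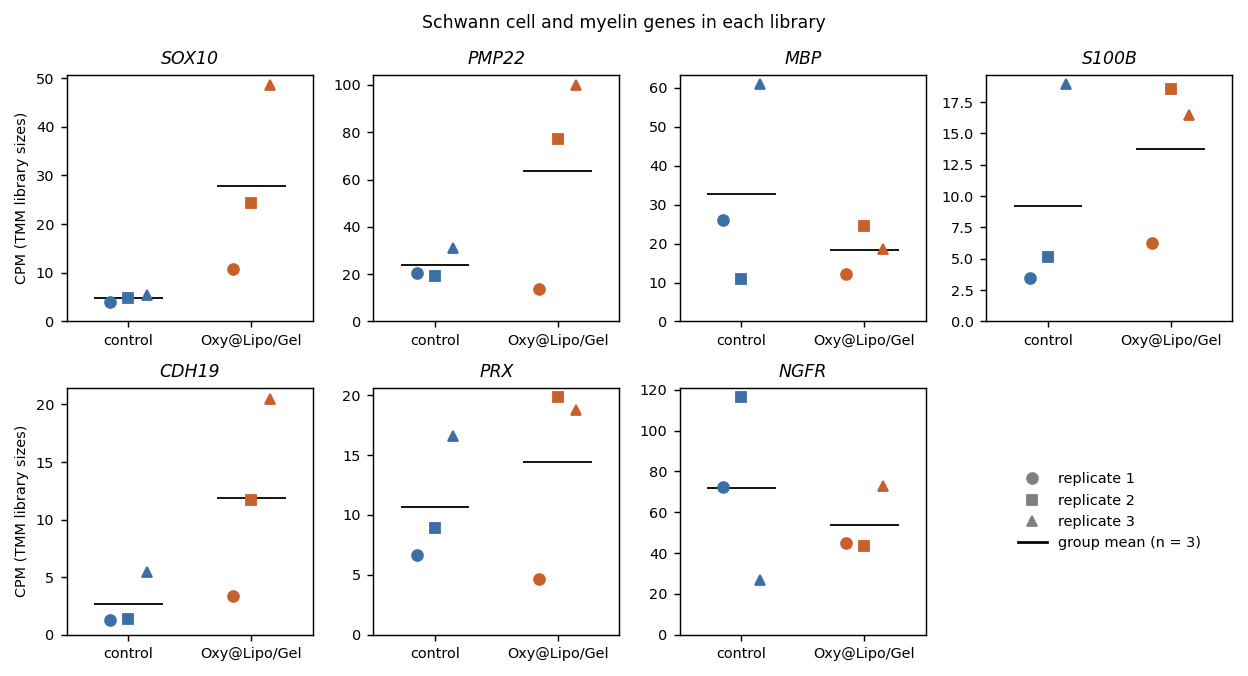
CPM of each of the 7 genes (linear axes from 0) in the 3 control and 3 Oxy@Lipo/Gel libraries; symbols mark the replicate and black lines the group means. SOX10 is the one gene with every Oxy@Lipo/Gel library above every control library, whereas MBP, S100B, PRX and NGFR overlap broadly.

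The lineage genes SOX10 and CDH19 had the largest differences. SOX10 measured 4.05, 4.89 and 5.42 CPM in control replicates 1, 2 and 3, and 10.8, 24.4 and 48.5 CPM in Oxy@Lipo/Gel replicates 1, 2 and 3. The controls were close together, and the Oxy@Lipo/Gel libraries all lay above them but were spread 4.50-fold among themselves. The group means were 4.79 ± 0.693 and 27.9 ± 19.1 CPM (SD, n = 3 in each group), a log2 fold change of 2.54 ± 0.54 (SE) with a 95% interval of 1.26 to 3.83. The edgeR adjusted p was 0.0755, and DESeq2 gave 0.000125. Leaving out single libraries gave log2 fold changes from 1.88 (without Oxy@Lipo/Gel replicate 3) to 2.92 (without Oxy@Lipo/Gel replicate 1, edgeR adjusted p = 0.0212).

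CDH19, a cadherin of the Schwann cell lineage and its precursors, was the least abundant member per gene length in all 6 libraries. It measured 1.26, 1.36 and 5.47 CPM in control replicates 1, 2 and 3 and 3.36, 11.7 and 20.5 CPM in Oxy@Lipo/Gel replicates 1, 2 and 3. The groups overlapped through control replicate 3, the library with thyroid transcripts, which lay above Oxy@Lipo/Gel replicate 1. The log2 fold change was 2.12 ± 0.83 (SE; 95% interval 0.14 to 4.11; edgeR adjusted p = 0.193). Without control replicate 3 it was 3.16, and without Oxy@Lipo/Gel replicate 3 it was 1.47, and neither passed the test.

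S100B, a calcium-binding protein used as a general marker of Schwann cells, followed another order. Its level was 3.48, 5.16 and 18.9 CPM in control replicates 1, 2 and 3, and 6.27, 18.6 and 16.5 CPM in Oxy@Lipo/Gel replicates 1, 2 and 3. The highest of all 6 libraries was thus a control, and the groups overlapped over almost their whole range. The log2 fold change was 0.58 ± 0.71 (SE; 95% interval -1.11 to 2.27; edgeR adjusted p = 0.655). It was 1.67 without control replicate 3 and 0.18 without control replicate 1.

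The myelin genes among the members differed from each other. PMP22, a tetraspan protein of compact myelin whose gene dosage causes Charcot-Marie-Tooth neuropathy in humans, measured 20.6, 19.4 and 31.2 CPM in control replicates 1, 2 and 3. In Oxy@Lipo/Gel replicates 1, 2 and 3 it measured 13.8, 77.2 and 100.1 CPM. Oxy@Lipo/Gel replicate 1 was therefore the lowest of all libraries, and the other libraries of its group were the highest. Over all libraries the log2 fold change was 1.42 ± 0.66 (SE; 95% interval -0.15 to 2.99; edgeR adjusted p = 0.250). It was 1.90 with an adjusted p of 0.0288 without Oxy@Lipo/Gel replicate 1, and 0.94 without Oxy@Lipo/Gel replicate 3.

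MBP encodes myelin basic protein, which holds the cytoplasmic faces of the myelin membrane together. It measured 26.1, 10.9 and 60.9 CPM in control replicates 1, 2 and 3 and 12.2, 24.4 and 18.5 CPM in Oxy@Lipo/Gel replicates 1, 2 and 3. A control library was the highest and another the lowest, a 5.61-fold spread within the control group. The log2 fold change was -0.83 ± 0.60 (SE; 95% interval -2.26 to 0.61; edgeR adjusted p = 0.445). It was -0.02 without control replicate 3 and -1.24 without control replicate 2. The part of the thyroid transcripts of control replicate 3 in the level of MBP was not tested. In the reference annotation ZNF236 overlaps MBP, and its counts ran from 341 to 416 in the 6 libraries.

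PRX encodes periaxin, which links the outer Schwann cell membrane to the basal lamina. It measured 6.66, 8.89 and 16.6 CPM in control replicates 1, 2 and 3 and 4.65, 19.9 and 18.8 CPM in Oxy@Lipo/Gel replicates 1, 2 and 3. As with PMP22, Oxy@Lipo/Gel replicate 1 was the lowest library, and the control values lay between it and the rest of its group. The log2 fold change was 0.43 ± 0.59 (SE; 95% interval -0.98 to 1.84; edgeR adjusted p = 0.696), with a range of 0.17 to 0.88 when single libraries were left out, the lowest without control replicate 1 and the highest without control replicate 3.

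NGFR, the p75 neurotrophin receptor, is known to be raised in Schwann cells that have lost axon contact. It measured 72.5, 116 and 27.0 CPM in control replicates 1, 2 and 3 and 44.7, 43.3 and 72.6 CPM in Oxy@Lipo/Gel replicates 1, 2 and 3. The control group held both the highest and the lowest library. The log2 fold change was -0.43 ± 0.51 (SE; 95% interval -1.64 to 0.79; edgeR adjusted p = 0.646). It turned to 0.10 without control replicate 2 and was -0.83 without control replicate 3.

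**Figure D2:**
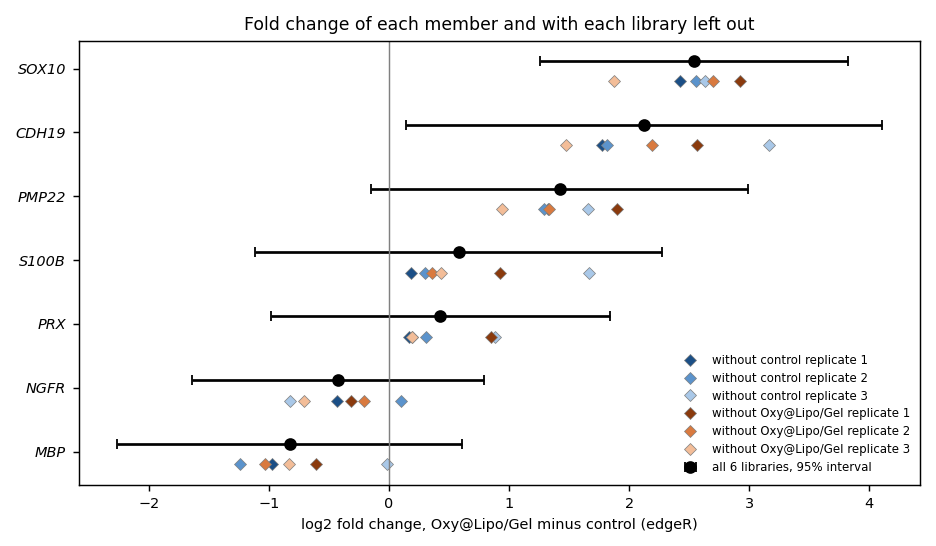
Log2 fold change of each member (Oxy@Lipo/Gel minus control, edgeR) with its 95% interval from all 6 libraries (black) and with each library left out (coloured diamonds). SOX10, CDH19, PMP22, S100B and PRX lay above 0 in all fits shown, MBP came to -0.02 without control replicate 3, and NGFR turned from -0.43 to 0.10 without control replicate 2.

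Per gene length, on the FPKM scale (counts divided by gene length and by the total of the library), the order of the members' levels also shifted between libraries. NGFR was the most abundant member in control replicates 1 and 2 and Oxy@Lipo/Gel replicate 1, at 14.4 to 29.3 FPKM. MBP came first in control replicate 3, at 23.2 FPKM. PMP22 came first in Oxy@Lipo/Gel replicates 2 and 3, at 37.1 and 44.0 FPKM. In group means of FPKM the control order was NGFR (19.9 ± 10.6, SD, n = 3), MBP (12.0 ± 10.2), PMP22 (11.3 ± 4.08), S100B (3.54 ± 3.52), PRX (2.10 ± 1.18), SOX10 (1.64 ± 0.324) and CDH19 (0.426 ± 0.409). The Oxy@Lipo/Gel order was PMP22 (29.4 ± 19.5), NGFR (15.6 ± 3.59), SOX10 (9.44 ± 5.80), MBP (6.56 ± 2.04), S100B (5.12 ± 2.29), PRX (2.77 ± 1.56) and CDH19 (1.76 ± 1.17). Neighbours in either order differed by less than the larger of their SDs, except PMP22 and S100B, and SOX10 and CDH19, in the control group, and NGFR and SOX10, and S100B and PRX, in the Oxy@Lipo/Gel group.

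Relative to SOX10 within the same library, most members were lower in the Oxy@Lipo/Gel libraries. The log2 ratio of MBP to SOX10 in FPKM was 2.72, 1.18 and 3.52 in control replicates 1, 2 and 3 and 0.21, 0.04 and -1.36 in Oxy@Lipo/Gel replicates 1, 2 and 3. For PRX it was -0.12, 0.03 and 0.78 in the controls and -2.05, -1.13 and -2.20 in the Oxy@Lipo/Gel libraries. The ratios of PMP22, S100B and NGFR to SOX10 also separated the groups without overlap, and that of CDH19 did not, with means of -2.35 ± 1.03 and -2.51 ± 0.32 (SD, n = 3). Of all other tested genes 77.9% had a ratio to SOX10 that was lower in every Oxy@Lipo/Gel library, so a gap of this kind was common and follows from the level of SOX10.

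Other myelin genes were read from the same fit. Of 18 listed genes 17 were tested, 12 log2 fold changes were above 0 and 5 below, and the median was 0.39. The median was 1.13 without control replicate 3, 0.94 without Oxy@Lipo/Gel replicate 1 and 0.25 without Oxy@Lipo/Gel replicate 3. Of the 17 genes 5 had an unadjusted p under 0.05 (23.3% of all genes did), and 2 passed in DESeq2 (11.8% of its tested genes did). One gene passed in edgeR, where 1.54% of all tested genes did (0.851% upward). ANLN rose from 4.92, 3.12 and 4.38 CPM in the controls to 10.3, 12.9 and 11.3 CPM (log2 fold change 1.47 ± 0.25 SE, edgeR adjusted p = 0.0479). With any single library left out it no longer passed (log2 fold change 1.30 to 1.61, edgeR adjusted p from 0.0533 to 0.243), nor did it with a replicate block (0.204) or library totals as size factors (0.0741). It passed with DESeq2 (adjusted p = 1.04e-06) and missed the threshold with limma-voom (adjusted p = 0.0541). ANLN encodes anillin, known for its part in cell division as well as in myelin of the central nervous system. PLLP, with the next smallest p, was lower without overlap, at 39.0 to 92.2 CPM in the controls and 25.8 to 37.2 CPM in the Oxy@Lipo/Gel libraries. Its log2 fold change was -1.14 ± 0.33 (SE; edgeR adjusted p = 0.125). Such a downward gap was found for 17.7% of all tested genes. MAG, the adhesion protein of the innermost myelin layer, was lowest in Oxy@Lipo/Gel replicate 1, at 0.166 CPM, and between 0.407 and 2.25 CPM in the other libraries.

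Genes that define or regulate the lineage gave 0 of 20 tested members past the test in edgeR. An unadjusted p under 0.05 was found for 5 (23.3% of all genes had one), and 3 passed in DESeq2 (11.8% of its tested genes did). Their median log2 fold change was 0.85, with 15 above 0 and 5 below, and it was 0.38 without Oxy@Lipo/Gel replicate 3. Of these 20 genes 13 were highest in Oxy@Lipo/Gel replicate 3, a library that was highest for 16.9% of all tested genes. FOXD3, a neural crest factor kept in Schwann cell precursors, measured 0.261, 0.340 and 0.856 CPM in control replicates 1, 2 and 3. In Oxy@Lipo/Gel replicates 1, 2 and 3 it measured 0.540, 4.89 and 7.08 CPM (log2 fold change 3.07 ± 0.97 SE, edgeR adjusted p = 0.140). ADGRG6, the adhesion receptor needed to start myelination, had groups that did not overlap, with 5.14 to 9.84 CPM in the controls and 14.2 to 16.8 CPM in the Oxy@Lipo/Gel libraries (edgeR adjusted p = 0.119). EGR2, the master regulator of peripheral myelination, measured 0.522, 7.74 and 1.62 CPM in the controls and 2.03, 1.48 and 0.911 CPM in the Oxy@Lipo/Gel libraries (log2 fold change -1.13 ± 0.92 SE, edgeR adjusted p = 0.495). ERBB3, the neuregulin receptor of Schwann cells that epithelium also makes, measured 88.6 to 111 CPM in the controls and 116 to 148 CPM in the Oxy@Lipo/Gel libraries (edgeR adjusted p = 0.282).

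The repair state that Schwann cells enter after nerve injury was represented by 12 tested genes, of which 0 passed in edgeR. Their log2 fold changes were above 0 for 7 and below 0 for 5. The median was 0.21, and it was -0.19 without Oxy@Lipo/Gel replicate 3. An unadjusted p under 0.05 was found for 3 (23.3% of all genes had one), and 3 passed in DESeq2 (11.8% of its tested genes did). JUN, the factor that drives this state, measured 96.1, 299 and 340 CPM in the controls and 596, 346 and 315 CPM in the Oxy@Lipo/Gel libraries (edgeR adjusted p = 0.395), and many other cells make it. GFAP, an intermediate filament of non-myelinating glia, had groups that did not overlap, with 5.92 to 8.94 CPM in the controls and 10.4 to 22.5 CPM in the Oxy@Lipo/Gel libraries. Its log2 fold change was 1.08 ± 0.33 (SE; edgeR adjusted p = 0.135). BTC, an EGF family ligand, measured 7.33 to 18.3 CPM and 19.6 to 42.7 CPM (edgeR adjusted p = 0.146). SHH lay the other way without overlap, at 5.14 to 9.84 CPM in the controls and 1.77 to 3.98 CPM in the Oxy@Lipo/Gel libraries. Its log2 fold change was -1.21 ± 0.41 (SE; edgeR adjusted p = 0.158). A gap between groups was found upward for 12.2% and downward for 17.7% of all tested genes.

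Ligands and partners of NGFR gave 0 of 9 tested genes past the test in edgeR. An unadjusted p under 0.05 was found for 3 (23.3% of all genes had one), and 2 passed in DESeq2 (11.8% of its tested genes did). The list had a median log2 fold change of -0.18 that ran from -0.50 without Oxy@Lipo/Gel replicate 3 to 0.02 without Oxy@Lipo/Gel replicate 2. The ligand BDNF measured 2.33 to 2.70 CPM and 1.87 to 2.78 CPM (edgeR adjusted p = 0.808). SORT1, the co-receptor for unprocessed neurotrophins, measured 24.6 to 57.2 CPM in the controls and 86.4 to 110 CPM in the Oxy@Lipo/Gel libraries without overlap (log2 fold change 1.20 ± 0.31 SE, edgeR adjusted p = 0.105). Its relative SORCS2 lay the other way, at 49.2 to 120 CPM in the controls and 26.1 to 33.6 CPM in the Oxy@Lipo/Gel libraries (log2 fold change -1.45 ± 0.33 SE, edgeR adjusted p = 0.0838). NTRK2, the BDNF receptor, measured 34.3 to 37.6 CPM and 16.2 to 32.6 CPM (edgeR adjusted p = 0.205).

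Genes of signals that can pass from axon to Schwann cell gave 0 of 11 tested genes past the test in edgeR. An unadjusted p under 0.05 was found for 5 (23.3% of all genes had one), and 3 passed in DESeq2 (11.8% of its tested genes did). NRG1, the axonal neuregulin that sets myelin thickness, measured 26.7, 44.1 and 11.7 CPM in the controls and 14.7, 6.95 and 16.4 CPM in the Oxy@Lipo/Gel libraries (edgeR adjusted p = 0.259). NRG2 was lower without overlap, at 54.7 to 105 CPM against 30.1 to 39.4 CPM (log2 fold change -1.20 ± 0.26 SE, edgeR adjusted p = 0.0780). NRG1 and NRG2 were both highest in control replicate 2 and lowest in Oxy@Lipo/Gel replicate 2, as was TP63, a gene of basal epithelium. Control replicate 2 was the highest library for 32.4% of all tested genes, a larger share than any other library had. Which cells of the tissue made them was not tested. CNTN1, an adhesion molecule of the axon beside the node of Ranvier, measured 12.9, 4.68 and 12.8 CPM in the controls and 9.09, 52.1 and 71.7 CPM in the Oxy@Lipo/Gel libraries (edgeR adjusted p = 0.169).

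Genes of neurons and axons were divided between libraries. Of 19 tested genes 9 were highest in Oxy@Lipo/Gel replicate 3, as SOX10 was, and 8 in control replicate 3. Of all tested genes 16.9% were highest in the first of these libraries and 14.6% in the second. Of these 19 genes 0 passed in edgeR. An unadjusted p under 0.05 was found for 4 (23.3% of all genes had one), and 4 passed in DESeq2 (11.8% of its tested genes did). The log2 fold change was above 0 for 8 of the 19 genes and below 0 for 11. Their median log2 fold change was -0.33, and it was 0.99 without control replicate 3, 0.21 without Oxy@Lipo/Gel replicate 1 and -0.90 without Oxy@Lipo/Gel replicate 3. In control replicate 3, the library with thyroid transcripts, the 23 listed genes summed to 301 CPM. The sum was 50.2 and 69.4 CPM in the other controls and 46.3 to 157 CPM in the Oxy@Lipo/Gel libraries. The part of cells other than nerve in these sums was not tested. STMN2, a growth-cone protein, measured 5.79, 0.136 and 21.4 CPM in the controls and 1.91, 5.10 and 11.2 CPM in the Oxy@Lipo/Gel libraries. PRPH, the intermediate filament of peripheral neurons, measured 1.09, 0.272 and 4.42 CPM in the controls and 3.32, 7.92 and 18.8 CPM in the Oxy@Lipo/Gel libraries (log2 fold change 2.35 ± 1.00 SE, edgeR adjusted p = 0.222). SNAP25, at an unadjusted edgeR p of 0.043, measured 17.4, 1.43 and 80.1 CPM in the controls and 1.29, 2.74 and 6.33 CPM in the Oxy@Lipo/Gel libraries. Its log2 fold change was -3.27 ± 1.31 (SE, edgeR adjusted p = 0.2). The groups overlapped for 16 of the 19 genes and did not for SLC18A3, VIP and RET, all higher in the Oxy@Lipo/Gel group. Such an upward gap was found for 12.2% of all tested genes, and a gap in either direction for 29.9%. SLC18A3, the vesicular acetylcholine transporter, measured 0 to 0.143 CPM in the controls and 0.498 to 3.16 CPM in the Oxy@Lipo/Gel libraries (edgeR adjusted p = 0.0811). Its counts in control replicates 1, 2 and 3 were only 2, 0 and 3. VIP, a relaxant neuropeptide, measured 0.0679 to 1.38 CPM in the controls and 1.62, 6.36 and 19.9 CPM in the Oxy@Lipo/Gel libraries (edgeR adjusted p = 0.135). Its lowest value, in control replicate 2, was 1 count. RET, the receptor for GDNF family ligands, measured 0.883 to 1.67 CPM and 2.03 to 5.09 CPM (edgeR adjusted p = 0.137), whereas GAL, the neuropeptide galanin, measured 2.00 to 2.85 CPM in the controls and 0.913 to 3.16 CPM in the Oxy@Lipo/Gel libraries (edgeR adjusted p = 0.643).

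Perineurial and endoneurial genes, which mark cells around and within nerve fascicles, had a median log2 fold change of -0.01. This median ran from -0.35 without Oxy@Lipo/Gel replicate 3 to 0.20 without Oxy@Lipo/Gel replicate 2. None of 7 passed in edgeR, 0 had an unadjusted p under 0.05 (23.3% of all genes did) and 0 passed in DESeq2 (11.8% of its tested genes did). The smallest p belonged to CLDN1, a tight junction protein of perineurium and epithelium, at 58.5 to 244 CPM in the controls and 75.5 to 115 CPM in the Oxy@Lipo/Gel libraries, and to the efflux pump ABCB1, at 6.40 to 9.28 CPM and 3.45 to 9.28 CPM (edgeR adjusted p = 0.380 and 0.539).

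**Figure D3:**
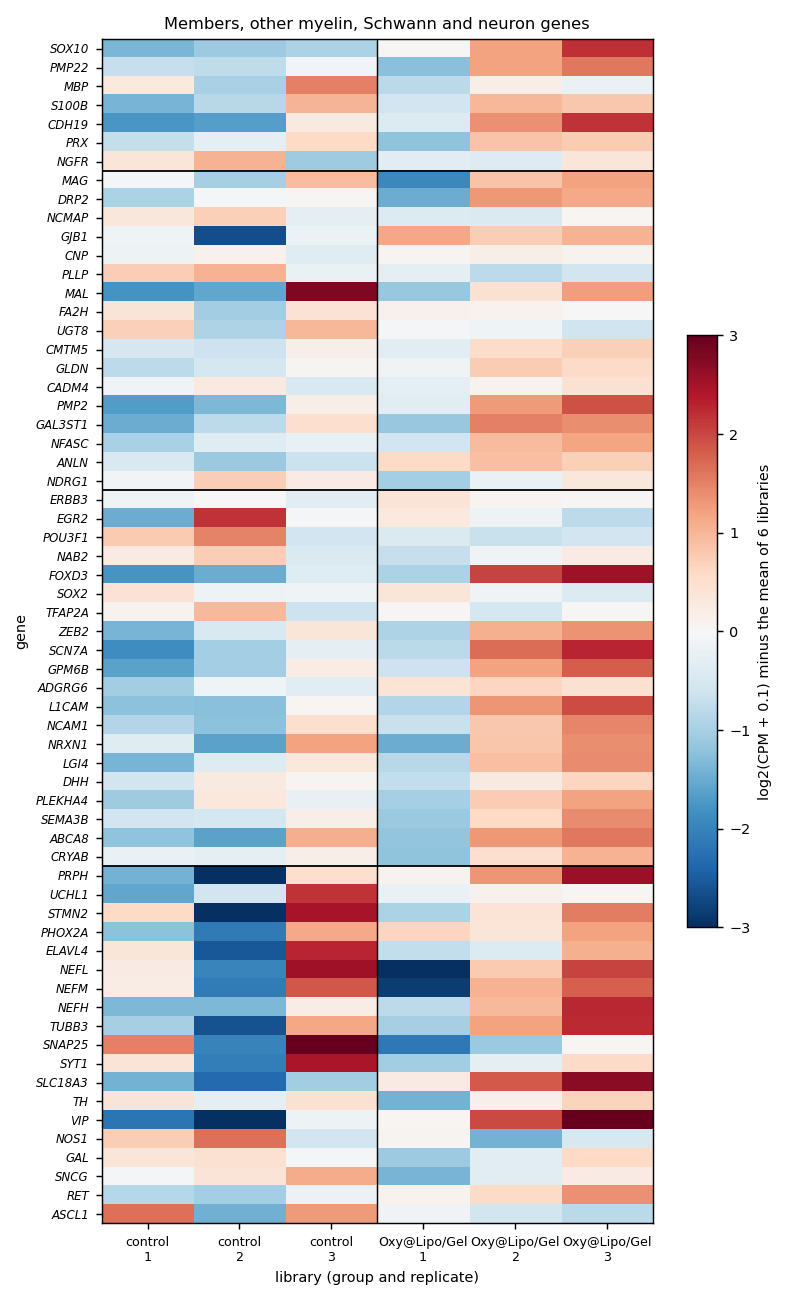
Heat map of log2(CPM + 0.1) relative to each gene's mean over 6 libraries, for the members and the tested genes of the myelin, Schwann lineage and neuron lists (black lines separate the lists; colours end at 3 and -3). Oxy@Lipo/Gel replicates 2 and 3 are red for most lineage genes, and control replicate 3 is red for MBP, S100B and several neuron genes such as STMN2.

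Markers of other cells that make the members shared some of their highest and lowest libraries with them, but not all. Basal epithelial genes, 6 of 6 listed, summed to 12090 CPM in control replicate 2, where NGFR was highest, and to 2276 CPM in control replicate 3, where NGFR was lowest. Of all tested genes 32.4% were highest in control replicate 2. Across groups the sum ran from 2276 to 12090 CPM in the controls and 2023 to 3865 CPM in the Oxy@Lipo/Gel libraries, and 0 of the 6 genes were without counts. The lowest sum was in Oxy@Lipo/Gel replicate 2, where NGFR measured 43.3 CPM. NGFR measured 72.5 CPM in control replicate 1 and 72.6 CPM in Oxy@Lipo/Gel replicate 3, at basal sums of 6794 and 3370 CPM. TP63, the transcription factor of basal cells, measured 212, 411 and 86.2 CPM in the controls and 120, 44.5 and 69.0 CPM in the Oxy@Lipo/Gel libraries (edgeR adjusted p = 0.189). Endothelial genes, 6 of 6, summed to 312.4 to 675.8 CPM in the controls and 179 to 548.1 CPM in the Oxy@Lipo/Gel libraries. Their lowest library was Oxy@Lipo/Gel replicate 1, which was also the lowest for PRX. Their highest was control replicate 3, whereas PRX was highest in Oxy@Lipo/Gel replicate 2. PECAM1, an endothelial adhesion molecule, measured 40.6 CPM in Oxy@Lipo/Gel replicate 1 and 66.1 to 162 CPM in the other libraries. The part of basal epithelium in NGFR and of endothelium in PRX was not tested.

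The smooth muscle sum was highest in Oxy@Lipo/Gel replicates 3 and 2, as PMP22 was. It was lowest in control replicate 3, at 439.8 CPM, where PMP22 was highest among the controls at 31.2 CPM. In Oxy@Lipo/Gel replicate 1, where PMP22 was lowest, the sum was 1063 CPM, within the control range. MYH11, the smooth muscle myosin heavy chain, measured 211 to 738 CPM in the controls. In Oxy@Lipo/Gel replicates 1, 2 and 3 it measured 593, 5589 and 7431 CPM (edgeR adjusted p = 0.128). Of the 6 muscle genes 0 passed in edgeR, while all 6 had an unadjusted p under 0.05 (23.3% of all genes did). The median log2 fold change of these 6 genes was 2.66. The 6 fibroblast genes summed to 291.4 to 349.3 CPM in the controls, 289.4 CPM in Oxy@Lipo/Gel replicate 1, and 1136 and 1279 CPM in replicates 2 and 3. Of these DCN, the proteoglycan decorin, measured 110 to 166 CPM in the controls and 75.8, 322 and 401 CPM in the Oxy@Lipo/Gel libraries (edgeR adjusted p = 0.388). Of the 6 fibroblast genes 0 passed in edgeR and 4 had an unadjusted p under 0.05, with a median log2 fold change of 1.18.

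Secretory gland genes, 8 of 8 listed, summed to 580.7 to 1684 CPM in the controls and 11150 to 31340 CPM in the Oxy@Lipo/Gel libraries, without overlap. SOX10 also separated the groups. The gland list was chosen last, with earlier results of these data known, so its separation is not an independent result. In this list 4 genes rose (LTF, PRR4, BPIFB1 and DMBT1, all secreted proteins of glands or mucosa) and 0 fell. Of all tested genes 0.851% passed upward. No gland gene passed in edgeR with a replicate block or without control replicate 1, control replicate 3, Oxy@Lipo/Gel replicate 2 or Oxy@Lipo/Gel replicate 3, 1 passed without control replicate 2, and 2 passed with library totals as size factors. The highest library for the gland sum and for SOX10 was Oxy@Lipo/Gel replicate 3, while the lowest Oxy@Lipo/Gel library was replicate 2 for glands and replicate 1 for SOX10. Myoepithelial genes, 6 of 6, summed to 663.6 to 2126 CPM in the controls and 1455 to 12810 CPM in the Oxy@Lipo/Gel libraries. In edgeR 0 of these 6 passed and 5 had an unadjusted p under 0.05 (23.3% of all genes did), with a median log2 fold change of 2.77. B-cell genes, 5 of 5, summed to 2.90 to 3.12 CPM in the controls and 16.3 to 47.8 CPM in the Oxy@Lipo/Gel libraries, and 4 of them rose (MS4A1, CD79A, CD79B and CD22, all B-cell surface proteins). No B-cell gene passed in edgeR with a replicate block or without any 1 of the 3 controls or Oxy@Lipo/Gel replicate 2, 1 passed without Oxy@Lipo/Gel replicate 3 and with limma-voom, and 0 passed with limma-trend on log2(FPKM + 1). The part of muscle and fibroblasts in PMP22 and of gland cells in SOX10 was not tested.

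Melanocyte genes were at low and mixed levels. TYR and TYRP1, the enzymes that define pigment cells, had at most 0.0951 CPM in any library and MLANA at most 0.870 CPM, whereas MITF, which other cells also make, measured 4.83 to 5.99 CPM in the controls and 5.94, 21.2 and 27.8 CPM in the Oxy@Lipo/Gel libraries. PMEL, a pigment granule protein, measured 1.77 to 2.57 CPM in the controls and 3.16 to 4.23 CPM in the Oxy@Lipo/Gel libraries (edgeR adjusted p = 0.181). DCT, another pigment enzyme, measured 0.950 to 1.48 CPM and 1.98 to 3.36 CPM (edgeR adjusted p = 0.137), so that both genes had groups that did not overlap. Such an upward gap was found for 12.2% of all tested genes, and a gap in either direction for 29.9%. Of 4 tested melanocyte genes 0 passed in edgeR, and 3 had an unadjusted p under 0.05 (23.3% of all genes did). All 6 melanocyte genes together summed to 9.03 to 10.5 CPM and 14.0 to 33.5 CPM.

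Chondrocyte genes, 9 of 9, summed to 67.3 to 143 CPM in the controls and 299.5 to 497 CPM in the Oxy@Lipo/Gel libraries. Of these 3 rose (the cartilage matrix genes COL11A1 and HAPLN1, and CNMD), where 0.851% of all tested genes passed upward. No chondrocyte gene passed in edgeR with a replicate block or without control replicate 1, control replicate 3, Oxy@Lipo/Gel replicate 2 or Oxy@Lipo/Gel replicate 3, 2 passed without control replicate 2, and 6 passed with DESeq2. COL2A1 measured 1.00, 9.44 and 29.2 CPM in the controls and at least 38.9 CPM in the Oxy@Lipo/Gel libraries (edgeR adjusted p = 0.258), and SOX9, the chondrocyte factor that epithelium also makes, 31.2 to 40.4 CPM and 34.6 to 53.5 CPM (edgeR adjusted p = 0.374). S100A1, a relative of S100B in the same list, measured 11.7, 10.3 and 49.9 CPM in the controls and 37.9, 41.7 and 57.3 CPM in the Oxy@Lipo/Gel libraries (edgeR adjusted p = 0.407). Like S100B, it was highest among the controls in replicate 3. Adipocyte genes, 6 of 6, summed to 312 CPM in control replicate 3 and 333.5 CPM in Oxy@Lipo/Gel replicate 2, where S100B measured 18.9 and 18.6 CPM. In Oxy@Lipo/Gel replicate 3, where S100B was nearly as high at 16.5 CPM, the adipocyte sum was 75.6 CPM, and in the remaining libraries it was 35.1 to 42.3 CPM. LEP among them had counts in control replicate 3 alone, and ADIPOQ, the adipocyte hormone adiponectin, measured 67.5 CPM in control replicate 3, 86.8 CPM in Oxy@Lipo/Gel replicate 2 and 0.957 to 9.44 CPM elsewhere. The part of cartilage and fat in S100B was not tested. Skeletal muscle genes summed to 12.0 to 39.8 CPM, with MYOG at 0.0679 CPM or less and ACTA1, skeletal actin, at 0.696 to 11.5 CPM.

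**Figure D4:**
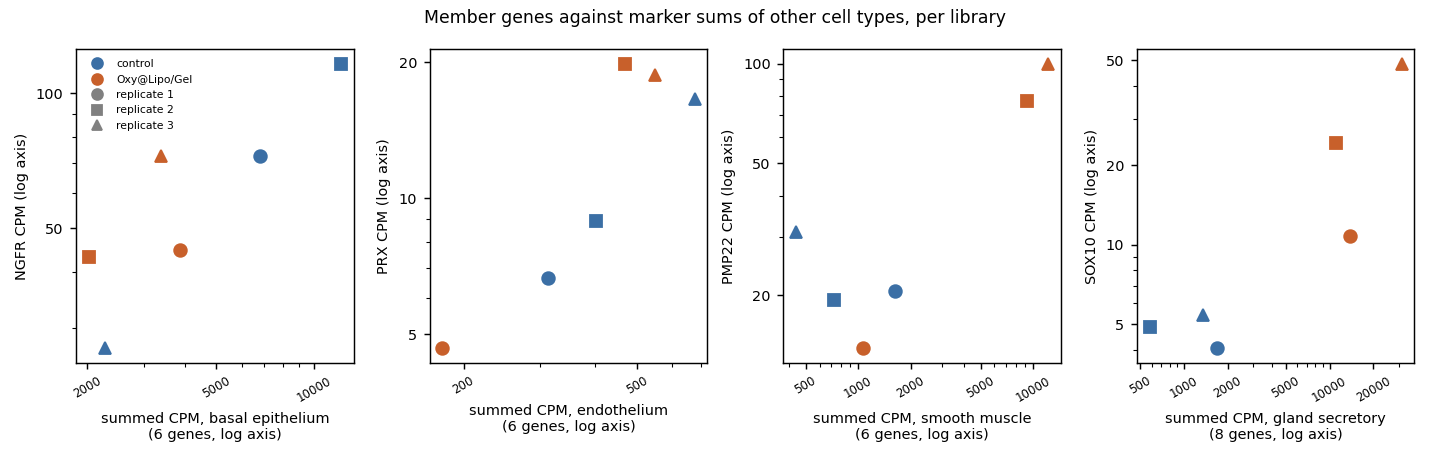
CPM of NGFR, PRX, PMP22 and SOX10 (vertical, log axes) against the summed CPM of marker genes of basal epithelium, endothelium, smooth muscle and secretory glands (horizontal, log axes); each point is a library, coloured by group, with the symbol giving the replicate. Control replicate 2 is highest for NGFR and basal epithelium, and Oxy@Lipo/Gel replicate 3 is highest for SOX10 and gland genes and for PMP22 and smooth muscle. Control replicate 3 is highest for endothelium, but Oxy@Lipo/Gel replicate 2 is for PRX. The lists were chosen with earlier results of these data known, the gland list last.

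The genes whose profiles were most like each member differed between members. Likeness was the mean absolute difference of log2 CPM over 6 libraries after centring each gene, and it is a description over libraries that share their depth and tissue makeup. For PMP22 the nearest were HSPB6, a small heat shock protein of muscle (0.0752), EDNRB, the endothelin B receptor (0.111), and SFRP4, a secreted Wnt antagonist (0.116). For PRX they were GATA2, a transcription factor of blood and endothelial cells (0.105), FADS3 (0.108) and CD93, an endothelial surface protein (0.110). For NGFR they were CHRNA5, a nicotinic receptor subunit (0.137), LAMA5, a laminin chain of epithelial basement membranes (0.139), and ICAM5 (0.162). SOX10 was nearest to SLC22A3, an organic cation transporter (0.178), CALHM5 (0.185) and CDH6, a cadherin (0.228). CDH19 was nearest to CRHBP (0.172), VAT1L (0.177) and CNTN2, an adhesion molecule of myelinated axons (0.220). S100B was nearest to NID2, a basement membrane protein (0.169), PDE1A (0.183) and VSIG4, a macrophage receptor (0.187). MBP was nearest to MLLT11 (0.225), LY96, a partner of TLR4 (0.230), and TRPM2, a cation channel (0.240). Among the members themselves the closest pair was PMP22 and PRX (0.400), followed by S100B and PRX (0.413) and SOX10 and CDH19 (0.467), and the most distant was CDH19 and NGFR (1.63).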

How the data were processed

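RNA from 6 tracheal samples was sequenced as poly(A)-selected, dUTP strand-specific, paired-end libraries, per the labels' protocols. The authors deposited raw counts per gene and FPKM (per the file headers), and for 17796 genes with at least 5 counts throughout, the deposited counts and FPKM gave 1 whole-number gene length (within 0.01 base), so they are not independent. GRCm38, rheMac8 and Mmul_8.0.1 are named without a role, per the submitters' processing notes. Aligner, counter, annotation and strand use: not given in the sources used here, so overlapping genes may share counts. The labels' tissue entry names a lubricated catheter and their extraction text cell lines, while the treatment text names tracheal tissue.

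Counts were fitted with edgeR 4.0.16 in R 4.3.3 (TMM; filterByExpr with a count of 10 and a total of 15; group alone; quasi-likelihood F test; Benjamini-Hochberg over 18676 genes at 0.05). The SE is the log2 fold change over the square root of F, and 95% intervals use the test's degrees of freedom. Profile neighbours are the 3 nearest named genes with a mean of at least 1 CPM, on log2 CPM with a prior count of 2. Replicate pairs all differed beyond sampling noise (lowest chi-square per degree of freedom 46.2). The fit was tested on simulated counts. Floors cover counting error only.

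Members and lists were chosen with earlier results of these data known, the gland list last. A few listed genes are not reported here and were left out of the counts over lists. Named by rule were, from each nerve list, genes past the test or else the 2 with the smallest p, fixed nerve genes, and the first and the passing genes of the other cell lists. MAG, PLLP, STMN2, JUN, SHH, LEP, RET, GAL, DCT, S100A1, MLANA, TYR, TYRP1, MITF, MYOG and the ratios to SOX10 were chosen after their values were seen. Alternatives were other size factors and filters, DESeq2 1.42.0, limma-voom and limma-trend (limma 3.58.1; log2(FPKM + 1) and log2(FPKM + 0.1)), a replicate block, and leaving out each library. Overlapping genes were looked up by name in the RefSeq gene table of the rhesus assembly T2T-MMU8v2.0. Figures used matplotlib 3.10.9.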

Additional observations from a re-analysis of the deposited data

How the results depend on the processing

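With single libraries left out, edgeR passed 0 to 628 genes in all (287 with all libraries) and 0 to 2 of the 7 members. The count of genes was 0 when control replicate 1 or 3 was dropped, and when Oxy@Lipo/Gel replicate 2 was (unadjusted p under 0.05: 3189, 4858 and 2271 genes). It was 139 with control replicate 2 dropped, and 628 and 20 with Oxy@Lipo/Gel replicates 1 and 3 dropped. Library totals as size factors gave 183 genes. DESeq2 gave 2460 genes and 1 member, and the cause was not tested. The log2 fold change of NGFR ran from -0.83 to 0.10 with single libraries left out, and the remaining 6 members kept their sign in every fit. With the replicate number as a block, 0 genes and 0 members passed (2866 genes at an unadjusted p under 0.05). Same-numbered samples did not all deviate together (correlations across genes of 0.23, -0.35 and -0.16 for replicates 1, 2 and 3), so the numbers were not taken as pairs. The remaining settings (median-of-ratios size factors, other filters, limma-voom, limma-trend) gave 199 to 313 genes and 0 members. At this number of libraries the 95% intervals of MBP, S100B, PRX and NGFR spanned 0 and reached at least 0.61 on either side, so they leave room for differences of that size in both directions.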
